A study of Triticum aestivum with 12 samples.

Results

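Vernalized axillary buds of the winter wheat cultivar AK58 were compared with shoot apices that had never been in the cold. The comparison used 4 of the 12 RNA-seq libraries of the series, that is 2 of its 6 groups with 2 libraries each. The 4 libraries were taken by their labels, as vernalized axillary bud replicates 1 and 2 and shoot apex replicates 1 and 2. The remaining groups were axillary bud before vernalization, shoot apex after it, and leaf before and after it.

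All plants were AK58, with no mutation or transgene given in the labels. The shoot apex came from 2-week-old plants grown with 16 h of light in days of 22 °C and nights of 19 °C. The vernalized axillary bud came from plants that had then spent 1 month at 4 °C and 1 day back in the greenhouse. Both tissues were dissected under a microscope. The 2 groups therefore differed in tissue, in cold treatment and in plant age, and these 3 factors cannot be told apart within this comparison. The study calls its replicates biological ones. No label states whether the 2 libraries of a group came from separate plants or pools. The p-values rest on a spread between replicates that is estimated over all 12 libraries, not the 4 alone, whatever its source. In tissue samples of this kind, fewer cells of a type and less RNA per cell cannot be told apart.

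The shoot apex of a grass seedling holds the main meristem, which makes leaves and, after the floral transition, the spike. An axillary bud sits in the axil of a leaf and holds a meristem of its own, from which a tiller can grow. Winter wheat flowers promptly only after prolonged cold, a requirement called vernalization. SPL genes, named again below, encode plant transcription factors that promote the change from the juvenile to the adult phase, and in Arabidopsis and rice many of them are targets of the microRNA miR156.

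Expression was measured as TPM, a unit of relative transcript abundance, which is scaled for gene length and for the total of each library. The deposited values cover 107891 genes, of which 60326 were tested because their group mean exceeded 1 TPM somewhere among the 6 groups. A log2 difference below is the mean log2(TPM + 1) of the vernalized axillary bud minus that of the shoot apex, a scale that understates the difference of genes with low TPM. A gene was called when limma gave an unadjusted two-sided p under 0.01 and the difference was above 2-fold, and adjusted p-values are limma's after Benjamini-Hochberg adjustment over all genes tested. Because TPM of a library sum to a fixed total, every call was also made after median-of-ratios scaling, which divides each library by its typical ratio to a common reference, here made of 21695 genes above 1 TPM in every library.

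The 4 libraries were not alike in breadth. Between 50485 and 50836 genes were above 1 TPM in the vernalized axillary bud, against 48153 and 42850 in shoot apex replicates 1 and 2, and the 100 most abundant genes took 14.8% and 15.2% of all TPM in the bud but 16.6% and 21.4% in the apex. The 2 shoot apex libraries were 0.397 apart on the log2 scale in the median tested gene, with 3338 genes over 2-fold apart, while the bud libraries were 0.101 apart with 125 such genes. After scaling these medians were 0.253 and 0.0906. The number of reads behind a TPM is not kept in these values, so the depth of a library could not be read from them. A value of 0 is given as listed at 0. Gene identifiers were not paired with names, apart from the SPL genes, so the tissue labels could not be checked against known marker genes.

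Across all genes the vernalized axillary bud resembled the young shoot apex closely. Pearson's r of log10(TPM + 1) between a bud and an apex library lay between 0.929 and 0.961, with a mean of 0.946. The higher values, 0.960 and 0.961, belonged to shoot apex replicate 1, and the lower, 0.929 and 0.933, to shoot apex replicate 2. The axillary bud before vernalization had r of 0.889 to 0.929 with the same apex libraries. With the vernalized axillary bud, which is the same tissue, it had r of 0.937 to 0.942. Between the vernalized axillary bud and the vernalized shoot apex r was 0.925 to 0.953, with a mean of 0.94. After scaling the vernalized bud had a mean r of 0.95 with the young apex and 0.945 with the vernalized apex. Its likeness to the apex was thus not particular to the young one. Between replicates r was 0.996 in the vernalized axillary bud and 0.976 in the shoot apex. This pair of groups was picked because it was the closest pair from different tissues, so these values describe the choice and carry no test.

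Genes that differed between the vernalized axillary bud and the shoot apex were nonetheless numerous. On the deposited scale 5241 genes (8.69% of those tested) were called higher in the bud and 1727 (2.86%) lower, and with the adjusted p under 0.05 in place of the unadjusted one 5301 (8.79%) and 1731 (2.87%) were. The excess of higher calls depended on the scale. The median log2 difference of all genes was 0.355 as deposited and 0 after scaling, where 1615 genes (2.7%) were called higher and 2963 (4.95%) lower. A fit without 1 library leaves 1 in its group, with a larger standard error. The higher count also changed in such fits, given first for the shoot apex and then for the bud. It was 12732 without replicate 1 and 2674 without replicate 2, and it was 2951 and 3431 without replicate 1 or 2 of the vernalized axillary bud. The lower count stayed between 1476 and 1812. Both bud libraries lay above both apex libraries in 34671 genes (57.5%) as deposited and below both in 8092 (13.4%).

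The genes called in the same direction on both scales are therefore described from here on. They were 1615 higher genes (2.75% of the 58749 tested on both scales) and 1711 lower genes (2.91%), and 1439 and 1195 of them were also called in each fit without 1 of the 4 libraries. The median log2 difference was 1.80 among the higher genes and the median size 1.61 among the lower ones. More than 4-fold differences were found in 603 higher and 530 lower genes, and more than 16-fold in 73 and 12. In summed abundance the lower genes weighed more. The lower genes took 7.64% and 8.34% of all TPM in the shoot apex libraries and 2.16% in each bud library. The higher genes took 2.68% and 2.56% in the bud and 0.490% and 0.370% in the apex. Most genes lay within 2-fold, 87.1% as deposited and 90.9% after scaling, against 82.0% and 81.7% for the axillary bud before vernalization. The median size of the log2 difference gave another order as deposited, 0.451 against 0.421, but 0.306 against 0.416 after scaling. The earlier comparison shares the shoot apex libraries, and closeness was the rule that chose the present pair.

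**Figure D1:**
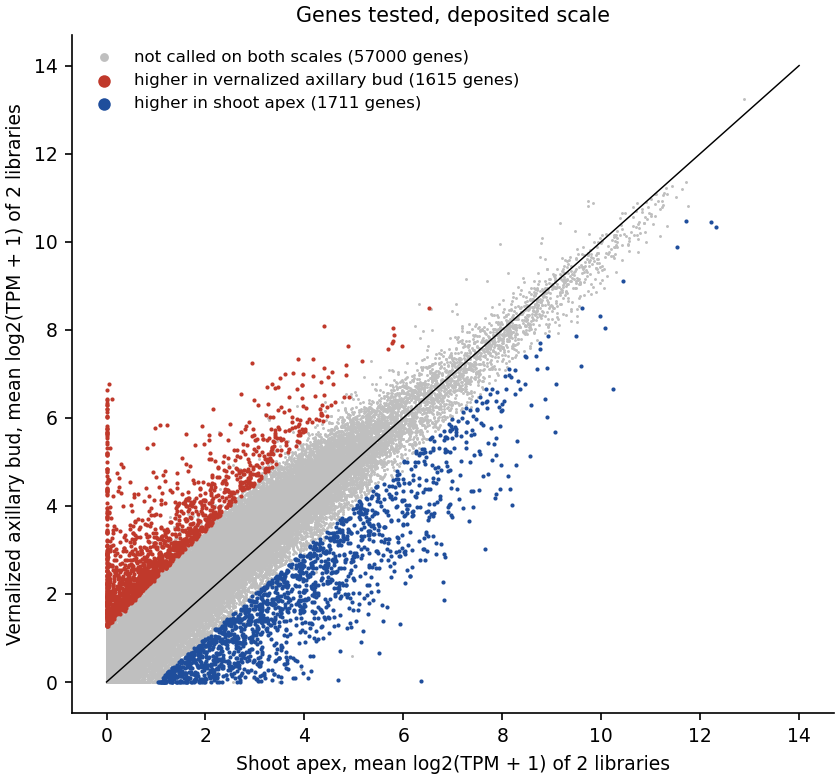
Mean log2(TPM + 1) of the 2 libraries of vernalized axillary bud (vertical axis) against that of the shoot apex (horizontal axis), 1 point for each of the 60326 genes tested, with the diagonal as a line of equal level. The 1615 red genes were called higher in the bud and the 1711 blue genes higher in the apex on both scales, and a column of red points at the left edge marks genes listed at or near 0 in the apex.

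The most abundant RNAs of the 4 libraries illustrate both outcomes. TraesCS1D02G034800 had 5703 and 10140 TPM in the shoot apex and 9460 and 9986 TPM in the vernalized axillary bud, so the groups overlapped and the log2 difference of 0.35 was not called (adjusted p = 0.474). TraesCS1B02G378400 had 2870 and 3890 TPM in the apex and 2570 and 2660 TPM in the bud, and was not called either (-0.35). TraesCS1D02G366400 had 2700 and 3760 TPM in the apex against 2310 and 2410 TPM in the bud and was not called. In contrast, TraesCS4B02G020300 had 5190 and 5000 TPM in the apex and only 1300 and 1270 TPM in the bud. Its log2 difference was -1.99 (standard error 0.40, adjusted p = 0.00523) and it was called on both scales. TraesCS4D02G018500 had 4800 and 4740 TPM in the apex against 1380 and 1400 TPM in the bud, a difference of -1.78, also called on both scales.

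The 8 genes that were lower by the largest amounts were abundant in the young apex. TraesCS2B02G490400 had 66.0 and 98.7 TPM in the shoot apex, 0.0346 TPM in the first bud library and 0 in the second. Its log2 difference of -6.33 (standard error 0.30, adjusted p = 5.30e-08) was the largest of all the lower genes. TraesCS4A02G107100 had 110 and 115 TPM in the apex and 4.01 and 1.62 TPM in the bud, a difference of -4.97. It reached 559 and 562 TPM in leaf, so it was not confined to apices. TraesCS2D02G467500 had 38.2 and 52.0 TPM in the apex and 0.595 and 0.581 TPM in the bud. TraesCS6A02G315900 had 30.5 and 38.7 TPM in the apex and 0.482 and 1.39 TPM in the bud. For these and for TraesCS4B02G187600 and TraesCS4D02G189000 the axillary bud before vernalization was also low, at 5.15 TPM or less in either library, so the difference from the apex was there before the cold. TraesCS3D02G348200 differed in this respect. It had 178 and 222 TPM in the apex and 7.53 and 6.75 TPM in the vernalized axillary bud (log2 difference -4.62), but 82.1 and 85.4 TPM in the bud before vernalization.

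A few genes with nearby identifiers on chromosome 2B were low in the vernalized axillary bud but not in the other bud and apex groups. TraesCS2B02G489900 had 18.1 and 18.6 TPM in the axillary bud before vernalization and 29.6 and 20.3 TPM in the shoot apex. In the vernalized axillary bud it had 0.0691 TPM in replicate 1 and was listed at 0 in replicate 2, while the vernalized shoot apex held 59.1 and 47.4 TPM. The log2 difference between vernalized axillary bud and shoot apex was -4.63 (standard error 0.24, adjusted p = 1.74e-07), and that between vernalized and non-vernalized bud was -4.23. TraesCS2B02G490500 had 10.2 and 8.23 TPM in the bud before, 9.44 and 7.07 TPM in the apex, and 0.0229 and 0.106 TPM in the vernalized axillary bud, a difference of -3.11 from the apex. TraesCS2B02G490400, described above, bears an identifier between these 2, but was already low in the bud before. Another gene nearby, TraesCS2B02G492300, had 34.5 and 36.0 TPM in the bud before and 3.19 and 4.02 TPM after.

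The 8 genes that were higher by the largest amounts were silent or nearly so outside the vernalized axillary bud. TraesCS1D02G001200 had 112 and 106 TPM in the bud, while shoot apex replicate 1 was listed at 0 and replicate 2 held 0.0707 TPM. On the log2(TPM + 1) scale this was a difference of 6.73 (standard error 0.16, adjusted p = 3.66e-10), and no fold is given because 1 apex library stood at 0. TraesCS5D02G004100 had 102 and 95.6 TPM, TraesCS1D02G000200 90.8 and 79.3 TPM, and TraesCS1A02G008000 83.1 and 72.9 TPM in the bud, and all 3 were listed at 0 in both apex libraries. TraesCS3D02G095700, with 78.0 and 77.4 TPM in the bud, was listed at 0 in each of the 10 other libraries. Adjusted p-values of the 8 genes were at most 1.67e-08. TraesCSU02G257591, with 83.6 and 75.5 TPM in the bud, reached 2.15 and 1.02 TPM in leaf, the highest level that any of the 8 had in another group.

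Of these 8 genes, 6 belonged to a larger set that the vernalized axillary bud held alone, the exceptions being TraesCS5D02G004100 and TraesCSU02G257591 with over 1 TPM in leaf. The set was defined after the values were seen, as genes above 5 TPM in both libraries of a group and below 1 TPM in each of the 10 others, so it is a description without a test. The vernalized axillary bud had 91 such genes, against 8 in the shoot apex, 2 in the axillary bud before vernalization and 11 in the vernalized shoot apex. Leaf and vernalized leaf had 259 and 309. The 91 genes took 0.269% and 0.239% of all TPM in bud replicates 1 and 2 and at most 0.000459% in any other library. In both apex libraries 80 of them were listed at 0, and 49 were listed at 0 in all 10 other libraries. By this definition they entered the fit only through the vernalized axillary bud and differed over 2-fold as deposited, so their calls were nearly fixed in advance. All 91 were called higher on both scales, 5.63% of the higher genes, and they were 48 of the 73 genes above 16-fold. Without them 1524 higher genes remained.

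The identifiers of these 91 genes were unevenly placed. In this annotation identifiers are numbered along each chromosome, and 18 of the 91 were on chromosome 1D and 8 on 1A, with 15 on sequence not assigned to a chromosome. Of the 58749 genes tested on both scales, 2640 were on 1D, 2527 on 1A and 677 unassigned. The placement was not tested. TraesCS1D02G001000 to TraesCS1D02G001400 were 5 consecutive genes called higher, near the first identifiers of 1D, with log2 differences of 2.89 to 6.73. TraesCS6A02G049066 to TraesCS6A02G049400 held a row of 4 neighbouring genes called higher on 6A, with 2.06 to 5.25, and 3 of these were in the set. Levels in the 2 bud libraries moved together: replicate 1 exceeded replicate 2 in 77 of the 91 genes, with a median ratio of 1.13 (range 0.734 to 1.58), against 1.05 for all higher genes. Both vernalized axillary bud libraries also had the fewest genes listed at 0, 34655 and 34870 against 38124 to 42674 in the other 10 libraries. The part of library depth, or of RNA from any other source, in these values was not tested.

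**Figure D2:**
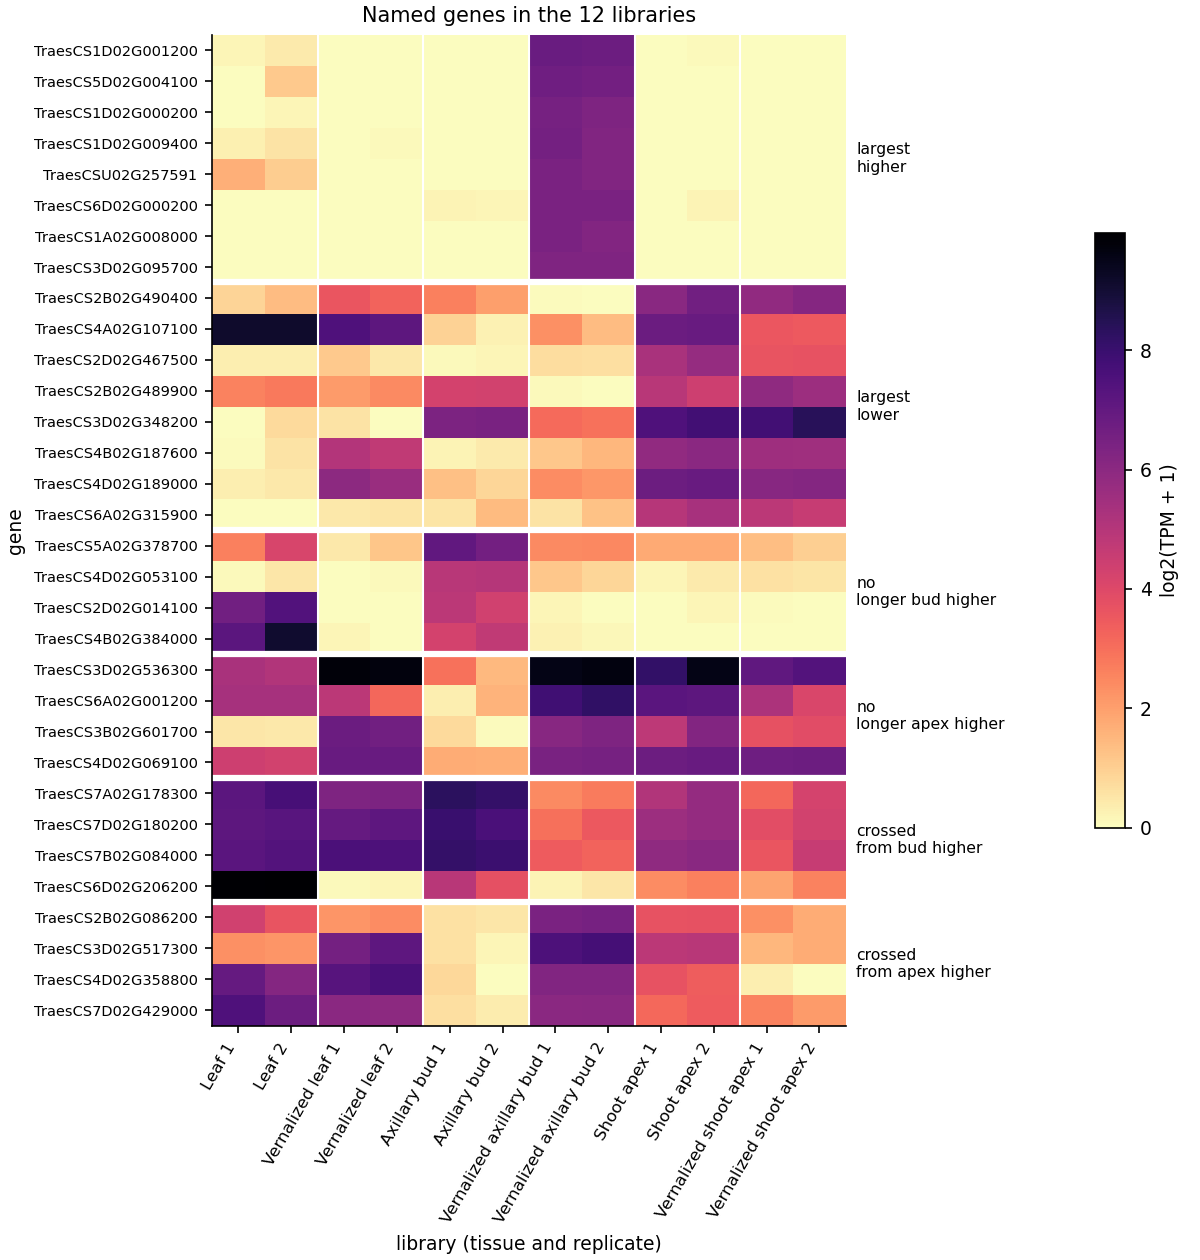
Log2(TPM + 1) of 32 named genes (rows) in the 12 libraries (columns, grouped by tissue), from pale for 0 to black for the highest level. The 8 genes of the top block are dark in the 2 vernalized axillary bud libraries alone, whereas those of the second block are dark in the shoot apex and pale in the vernalized bud.

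To ask what still separated bud from apex after vernalization and what no longer did, each gene was placed in a class by 3 contrasts. The axillary bud before vernalization was compared with the same shoot apex libraries, where 4829 genes (8.0%) were called higher in the bud and 5264 (8.73%) higher in the apex, or 3902 (6.52%) and 6170 (10.3%) after scaling. The vernalized bud was compared with the bud before, where 6888 genes (11.4%) were called higher and 2051 (3.4%) lower, or 3725 (6.23%) and 3176 (5.31%) after scaling. A gene still separated the tissues when it was called the same way before and after, and no longer did so when the difference fell below 2-fold and the bud itself was called changed towards the apex. Both bud and apex comparisons use the same 2 apex libraries, and the third shares the bud libraries with each, so the class sizes are descriptions. Of the genes called before, a further 16 higher in the bud and 228 higher in the apex were called on the opposite side after, and 1984 and 1392 fell in none of these classes.

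Genes higher in the bud before vernalization lost their difference somewhat more often than they kept it, an order that turned without shoot apex replicate 1 and with a pseudocount of 0.1, which gave 2256 still higher and 1514 no longer higher. Of the 4829, 1307 (27.1%) were still higher in the vernalized bud and 1522 (31.5%) no longer were, and after scaling 499 (12.8% of 3902) and 2100 (53.8%). For genes higher in the apex the order of these 2 outcomes turned with the scale. As deposited, 1537 of 5264 (29.2%) were still higher in the apex and 2107 (40.0%) no longer were, against 2369 (38.4% of 6170) and 1547 (25.1%) after scaling. The count still higher in bud also changed when single libraries were left out. It rose without shoot apex replicate 1 and fell without shoot apex replicate 2 or vernalized axillary bud replicate 1. On both scales there were 497 genes still higher in bud, 1517 still higher in apex, 1400 no longer higher in bud and 1244 no longer higher in apex.

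The levels of these classes in each library are given as a description, since the definition required the bud itself to have moved towards the apex. The 1400 genes no longer higher in bud had medians of 12.4 and 11.6 TPM in the bud before vernalization and 3.33 and 3.32 TPM after it, beside 2.53 and 1.83 TPM in the shoot apex. They were also high in leaf, at 24.4 and 29.2 TPM. The 1244 genes no longer higher in apex had medians of 1.15 and 1.16 TPM in the bud before, and 7.45 and 7.48 TPM after, beside 6.54 and 5.67 TPM in the shoot apex. The medians of the latter genes were 5.02 and 3.91 TPM in the vernalized shoot apex and between 0.871 and 1.29 TPM in the 4 leaf libraries. In both classes the median of either vernalized bud library was above that of either shoot apex library.

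The 1517 genes still higher in apex had medians of 11.4 and 10.9 TPM in the shoot apex and 2.32 and 2.14 TPM in the vernalized bud, which stood above the 0.539 and 0.795 TPM of the bud before. The 497 genes still higher in bud had medians of 11.7 and 10.6 TPM in the vernalized bud against 2.20 and 1.20 TPM in the shoot apex, and 17.5 and 15.8 TPM in leaf. The median of this class was thus higher in leaf than in the vernalized bud. Beside it, a list of 713 leaf-high genes was made from the other 8 libraries, as genes more than 8-fold higher in both leaf groups than in axillary bud and vernalized shoot apex. They took 0.396% and 0.369% of all TPM in the vernalized bud, 0.144% and 0.135% in the shoot apex, and 15.1% to 25.4% in the leaf libraries. On the deposited scale 193 of the 713 were called higher and 12 lower, where 8.69% and 2.86% of all genes were, and after scaling 110 and 15, where 2.7% and 4.95% were. Their median log2 differences were 0.605 and 0.31, against 0.355 and 0 for all genes, and the part of leaf tissue in the difference was not tested.

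**Figure D3:**
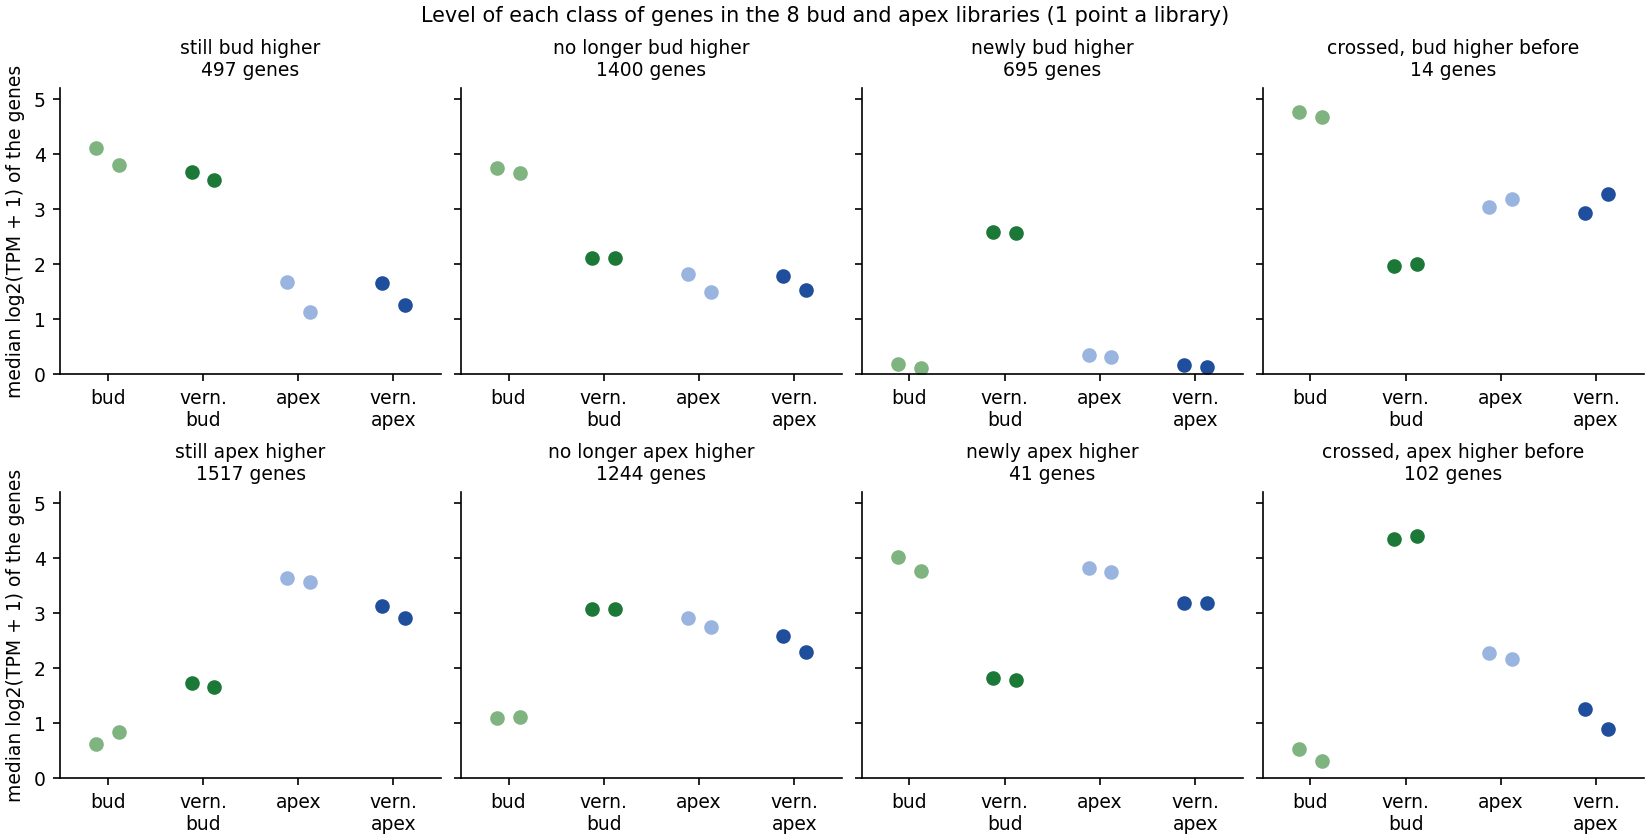
Median log2(TPM + 1) (vertical axis) of the genes of each class in the 8 bud and apex libraries, 2 for each tissue without and with vernalization (1 point a library), for classes assigned alike on both scales. The 1400 genes no longer higher in bud fall to 2.11 in both vernalized bud libraries, near but above the 1.82 and 1.5 of the shoot apex, the 1244 no longer higher in apex rise to 3.08, above its 2.91 and 2.74, and the 695 newly higher in bud are near 0 outside the vernalized bud.

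Single genes of these classes changed by large amounts. TraesCS3D02G536300 had 6.71 and 1.75 TPM in the axillary bud before vernalization, 284 and 761 TPM in the shoot apex, and 755 and 810 TPM in the vernalized bud. The log2 difference of the bud from the apex went from -6.66 (adjusted p = 1.94e-06) to 0.75 (adjusted p = 0.264). TraesCS6A02G001200 had 0.270 and 1.97 TPM in the bud before, 147 and 140 TPM in the apex, and 230 and 295 TPM in the vernalized bud. The 2 apex libraries of TraesCS3B02G601700 held 27.3 and 73.6 TPM, so its difference from the vernalized bud, with 67.2 and 80.0 TPM, was 0.69 with both but 1.39 and called without shoot apex replicate 2. TraesCS4D02G069100 had 2.28 and 2.25 TPM in the bud before, 107 and 117 TPM in the apex, and 85.8 and 90.9 TPM in the vernalized bud. This gene was at 105 and 106 TPM in the vernalized shoot apex as well.

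In the other direction, TraesCS5A02G378700 had 130 and 96.5 TPM in the bud before vernalization, 4.45 and 4.57 TPM after it, and 2.46 and 2.42 TPM in the shoot apex. Its log2 difference from the apex went from 5.04 (adjusted p = 4.34e-06) to 0.68 (adjusted p = 0.237). TraesCS4D02G053100 had 29.7 and 31.0 TPM before and 1.19 and 0.793 TPM after, against 0.141 and 0.335 TPM in the apex. This remaining difference of 0.68 was under 2-fold with the pseudocount of 1 but 1.73 and called with a pseudocount of 0.1. TraesCS2D02G014100 and TraesCS4B02G384000 fell from 28.0 and 19.0 TPM and from 18.2 and 25.6 TPM in the bud to at most 0.196 TPM. Both were abundant in leaf before vernalization, with 98.2 and 168 TPM and 144 and 540 TPM, and at most 0.117 TPM in vernalized leaf.

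Differences that appeared with vernalization of the bud lay mostly on the bud side, the more so on the deposited scale. Under 2-fold before and called after, with the bud itself called changed in that direction, were 1635 genes newly higher in bud and 47 newly higher in apex, or 696 and 136 after scaling and 695 and 41 on both scales. The 47 became 31 without vernalized axillary bud replicate 2. Median levels of the 695 were 5.03 and 4.93 TPM in the vernalized bud, 0.282 and 0.252 TPM in the shoot apex, 0.142 and 0.0907 TPM in the bud before, and 0.127 and 0.0930 TPM in the vernalized shoot apex. The 91 genes held by the vernalized bud alone were all among them, which their definition made nearly certain, and 604 remained without those. The 41 newly higher in apex had medians of 15.1 and 12.7 TPM in the bud before, 13.0 and 12.4 TPM in the apex, and 2.53 and 2.45 TPM in the vernalized bud. Another such gene, TraesCS7B02G108400, had 1.00 and 9.87 TPM in the bud before, which were far apart, and 0.0855 and 0.0792 TPM after.

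Some genes crossed over, being called on opposite sides of the apex before and after. There were 228 such genes from apex higher to bud higher and 16 from bud higher to apex higher, or 115 and 22 after scaling, and 102 and 14 on both scales. TraesCS3D02G517300 had 0.520 and 0.114 TPM in the bud before vernalization, 27.8 and 29.1 TPM in the shoot apex, and 182 and 211 TPM in the vernalized bud. Its log2 difference from the apex went from -4.50 (adjusted p = 4.34e-07) to 2.74 (adjusted p = 1.91e-05). TraesCS2B02G086200 had 0.540 and 0.398 TPM in the bud before, 11.8 and 12 TPM in the apex, and 84.8 and 90.4 TPM in the vernalized bud. TraesCS4D02G358800 and TraesCS7D02G429000 followed the same course, with 74.5 and 75.8 TPM and 63.4 and 64.8 TPM in the vernalized bud and log2 differences from the apex of 2.72 each.

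The reverse crossing was led by 3 genes on the chromosomes of homoeologous group 7. TraesCS7A02G178300 had 315 and 275 TPM in the bud before vernalization, 33.3 and 53.9 TPM in the shoot apex, and 4.33 and 5.74 TPM in the vernalized bud, and its log2 difference from the apex went from 2.77 to -2.86 (adjusted p = 0.000196). TraesCS7B02G084000 had 279 and 248 TPM before, 58.3 and 65.5 TPM in the apex and 9.76 and 8.46 TPM after. TraesCS7D02G180200 had 256 and 195 TPM before, 47.7 and 54.5 TPM in the apex and 6.92 and 10.4 TPM after. These 3 genes had low levels in the vernalized shoot apex too, between 7.94 and 22.9 TPM, but between 80.2 and 190 TPM in vernalized leaf. TraesCS6D02G206200 had 29.3 and 12.7 TPM in the bud before, 4.23 and 5.21 TPM in the apex and 0.173 and 0.391 TPM after.

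Bud and apex could also be compared in libraries that the main comparison did not use. The axillary bud before vernalization was set against the vernalized shoot apex, so that the cold lay on the apex side and no library was shared. The p-values of both comparisons still rest on the same spread, estimated over all libraries, so their calls are not independent. The same-numbered libraries of shoot apex and vernalized shoot apex also deviated together from their group means, with r of 0.742 across genes. There, 5948 genes (9.86%) were called higher in bud and 4375 (7.25%) higher in apex, or 4159 (6.95%) and 5813 (9.72%) after scaling. Of the 5948, 1414 (23.8%) were called higher in the vernalized bud than in the young apex and 41 (0.689%) lower, where 8.69% and 2.86% of all genes tested were. Of the 4375, 1193 (27.3%) were called lower and 160 (3.66%) higher. After scaling, 483 of the 4159 (11.6%) were higher and 54 (1.3%) lower, against 2.7% and 4.95% of all genes, and 1862 of the 5813 (32.0%) were lower and 67 (1.15%) higher.

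Both pairs on both scales thus held 483 genes called higher in bud and 1178 called higher in apex, while 56 were higher in the vernalized bud yet lower in the bud before, and 30 the reverse. In the apex-high list the median log2 difference between vernalized bud and young apex was -0.414 as deposited and -0.697 after scaling, against 0.355 and 0 for all genes. Across the 60326 genes, r between the log2 differences of the 2 pairs was 0.511, and 0.534 after scaling over 59825 genes, as a description, since genes of a library are not independent. Genes that rest on the vernalized bud alone have no counterpart in the second pair. The 8 genes higher in the vernalized bud than in the young apex by the largest amounts had log2 differences there of 0 to 0.20.

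**Figure D4:**
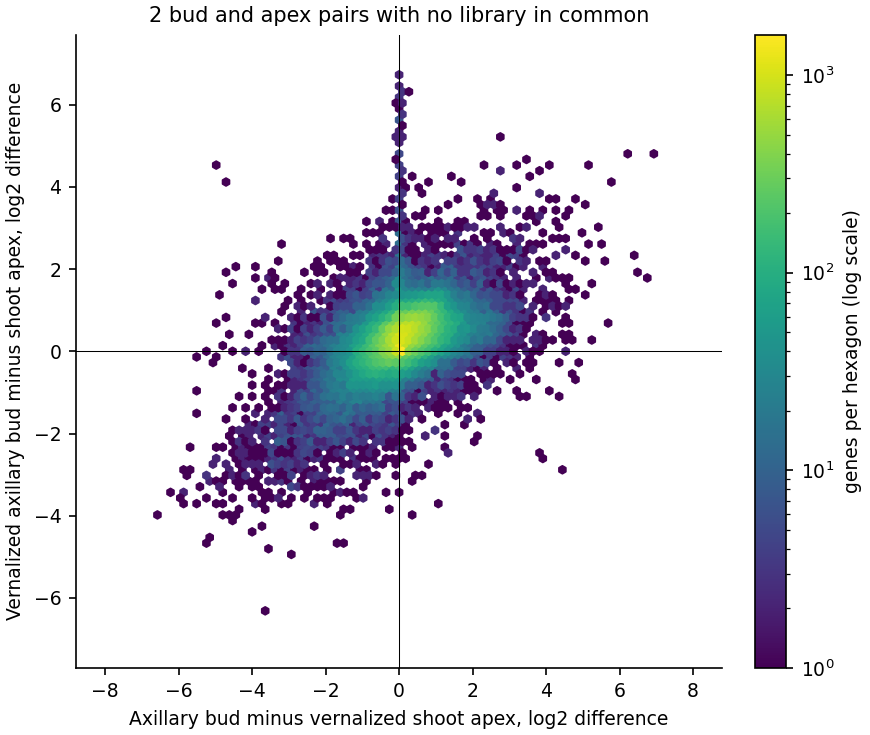
Log2 difference of vernalized axillary bud minus shoot apex (vertical axis) against that of axillary bud minus vernalized shoot apex (horizontal axis) for the 60326 genes tested, with colour for the number of genes per hexagon on a log scale. The cloud is tilted (r 0.511), its centre lies above 0 on the vertical axis where the median is 0.355, and a vertical streak near 0 on the horizontal axis holds the genes high in the vernalized bud alone.

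The genes that differed between vernalized and non-vernalized leaf were examined next, since the bud had been in the cold and the apex had not. Vernalized leaf was also from older plants, so cold and age cannot be told apart there either. Vernalized leaf against leaf gave 7421 genes (12.3%) called higher and 27842 (46.2%) lower, and after scaling 13823 (23.1%) and 10162 (17.0%). These libraries are not among the 4 compared here. The p-values of both comparisons rest on the same spread, estimated over all libraries, so their calls are not independent. A gene with a small spread is called more easily in both. Of the 7421 genes higher in vernalized leaf, 734 (9.89%) were called higher in the vernalized bud than in the apex and 859 (11.6%) lower, beside 8.69% and 2.86% of all genes. After scaling, 508 of the 13823 (3.68%) were higher and 1670 (12.1%) lower, beside 2.7% and 4.95%. Genes higher in vernalized leaf were therefore called more often than genes in general on both sides and both scales, with the larger excess on the apex side. The part of the shared spread in this excess was not tested. Of the 27842 genes lower in vernalized leaf, 9.52% were called higher here and 0.453% lower. After scaling these shares were 2.59% and 1.54% of the 10162. The 859 ranged from 705 to 903 when single libraries were left out. Across genes, r between the leaf difference and the bud minus apex difference was -0.227, and -0.164 after scaling.

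Compared with the young apex, SPL genes leaned to the vernalized bud. Of 53 SPL genes with known identifiers 46 were tested, and 10 of these (21.7%) were called higher in the vernalized bud and 0 lower, beside 8.69% and 2.86% of all genes. The adjusted threshold gave 11 higher and 0 lower. After scaling, 4 of 45 (8.89%) were higher and 0 lower, beside 2.7% and 4.95%. The median log2 difference was 0.697 as deposited and 0.352 after scaling, against 0.355 and 0 for all genes, and 3 SPL genes lay below 0 as deposited and 7 after scaling. Without vernalized axillary bud replicate 1 the number called was 6. The axillary bud before vernalization, against the same apex libraries, had 3 of 46 SPL genes called higher, where 8.0% of all genes were, and 1 of 45 after scaling, where 6.52% were. The vernalized shoot apex against the young apex had 11 SPL genes called higher and 0 lower on either scale. Against the vernalized shoot apex, the vernalized bud had 3 higher and 3 lower as deposited, and 0 and 10 after scaling. SPL genes called above the young apex were thus not confined to the bud. For these comparisons with the vernalized shoot apex, the share called over all genes was not counted. Their SPL counts therefore cannot be set against genes in general. Whether the SPL count differed between these comparisons was not tested.

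The 4 SPL genes called on both scales were TaSPL9A, TaSPL2B, TaSPL9D and TaSPL13A. TaSPL9A (TraesCS6A02G110100) had 6.79 and 2.91 TPM in the shoot apex and 18.1 and 19.6 TPM in the vernalized bud, with no overlap, a log2 difference of 1.84 (standard error 0.31, adjusted p = 0.00170). TaSPL9D (TraesCS6D02G098500) had 3.97 and 2.51 TPM in the apex and 11.2 and 11.8 TPM in the bud (1.58, adjusted p = 0.000587). TaSPL9B (TraesCS6B02G138400), the third homoeologue, had 2.61 and 1.79 TPM against 7.02 and 7.03 TPM, and its difference of 1.34 as deposited was 0.89 and no longer called after scaling. TaSPL13A (TraesCS7A02G246500) had 3.53 and 1.58 TPM in the apex and 9.85 and 8.16 TPM in the bud, a difference of 1.54. All 3 homoeologues of TaSPL9 and of TaSPL13 thus stood higher in the bud, and as deposited all 6 were called.

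TaSPL2 differed from TaSPL9 in its pattern across groups. TaSPL2B (TraesCS2B02G250900) had 0.239 and 0.265 TPM in the shoot apex, 3.37 and 2.80 TPM in the vernalized bud (log2 difference 1.70, adjusted p = 0.000427), and 25.5 and 32.8 TPM in the vernalized shoot apex. TaSPL2A and TaSPL2D were at 1.07 TPM or less in the vernalized bud, with differences of 0.71 and 0.70 that were not called, but were 1.78 and 2.28 and called with a pseudocount of 0.1. In the vernalized shoot apex these 2 had 16.9 and 19.4 TPM and 15.2 and 16.4 TPM. The vernalized bud therefore stayed below the vernalized apex for all 3 homoeologues, with log2 differences of -3.25 for TaSPL2A, -2.88 for TaSPL2B and -3.26 for TaSPL2D, each called. As deposited these were the only 3 SPL genes called lower than in the vernalized apex. After scaling 10 were, among them TaSPL7A (-1.06), TaSPL7B (-1.33) and TaSPL7D (-1.5), so this order was not particular to TaSPL2.

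TaSPL7 and TaSPL15, counterparts of Arabidopsis SPL9 and of the rice panicle and tiller regulator OsSPL14, were not called in any of their homoeologues as deposited or after scaling, though 3 of the 6 genes gained a call under other settings. TaSPL7D (TraesCS5D02G273900) had 2.55 and 3.01 TPM in the apex and 5.93 and 6.66 TPM in the vernalized bud, which did not overlap, with a log2 difference of 0.95 (standard error 0.25, adjusted p = 0.0234) that was 0.49 after scaling. It was called with a pseudocount of 0.1 (1.15) and without shoot apex replicate 2 (1.04). TaSPL7A and TaSPL7B had 0.55 each. TaSPL15A (TraesCS7A02G260500) had 0.605 and 0.429 TPM in the apex and 1.66 and 1.80 TPM in the bud, a log2 difference of 0.85 (adjusted p = 0.00254) that stayed under 2-fold on this scale but was 1.58 and called with a pseudocount of 0.1. TaSPL15B and TaSPL15D had 0.88 and 0.61, and TaSPL15B was called with a pseudocount of 0.1 (1.45) and without shoot apex replicate 1 (1.10).

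The calls of the abundant TaSPL6A, TaSPL6B and TaSPL14B were lost under more settings than those of the other called SPL genes. All 3 were lost after scaling, without shoot apex replicate 2, without either vernalized bud library, with no filter on low values and with the 4 libraries alone. TaSPL14B (TraesCS7B02G142200) had 26.0 and 10.2 TPM in shoot apex replicates 1 and 2 and 43.8 and 41.0 TPM in the vernalized bud. Its log2 difference of 1.32 (adjusted p = 0.0375) was 0.68 and not called without shoot apex replicate 2, and 0.80 and not called after scaling. TaSPL6A (TraesCS4A02G359500) had 13.9 and 5.72 TPM in the apex and 23.1 and 21.4 TPM in the bud, a difference of 1.21 that was 0.64 without shoot apex replicate 2 and 0.71 after scaling. TaSPL4A, with 0.748 and 0.709 TPM in the apex and 0.486 and 0.505 TPM in the bud, had the lowest difference of the SPL genes tested as deposited, -0.21, and was not called, while after scaling TaSPL4D was lower (-0.51 against -0.39).

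**Figure D5:**
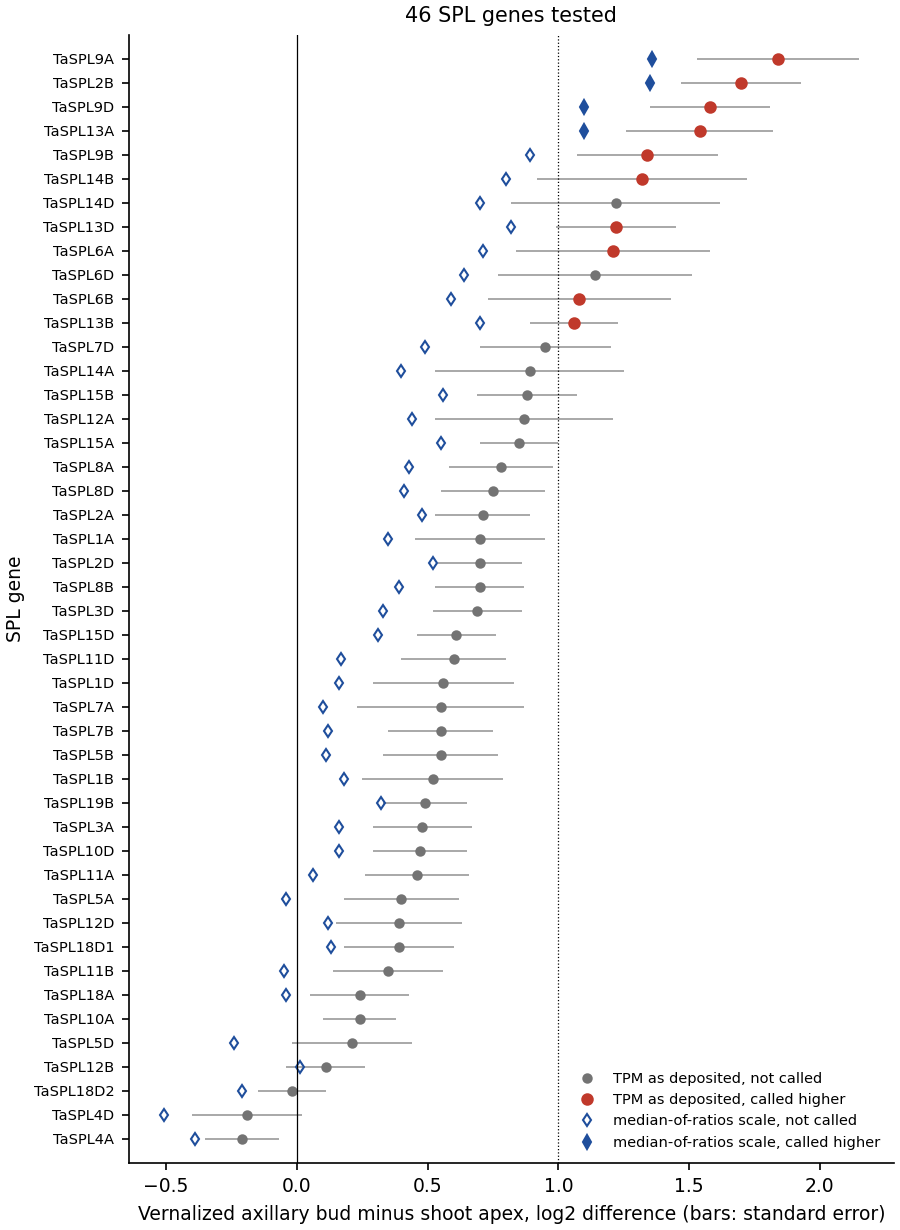
Log2 difference of vernalized axillary bud minus shoot apex (horizontal axis) for the 46 SPL genes tested, as deposited (circles, with the standard error as a bar) and after median-of-ratios scaling (diamonds), with filled colour for genes called higher and a dotted line at 2-fold. Of the circles 10 are called and of the diamonds 4, and scaling moves nearly every gene to the left.

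Bread wheat carries most genes as a triad of A, B and D homoeologues, and the 3 copies give a further view of the differences. The part of the triad list at hand held 1998 triads, all with their A copy on chromosome 4A, and in 1410 all 3 copies were tested. On both scales 101 triads (7.16%) had a copy called, where 2.75% of all single genes were called higher and 2.91% lower. In 53 of them (52.5%) a single copy was called, in 21 a pair, and in 27 (26.7%) all 3 in the same direction, 10 higher and 17 lower in the vernalized bud. In no triad were copies called in opposite directions. Whether these counts differ from those of unrelated genes called at the same rates was not tested. As deposited the triads with a single copy and with all 3 called alike were 135 and 59, and after scaling 76 and 38. The 59 were 200 without shoot apex replicate 1, 29 without shoot apex replicate 2, and 29 and 32 without bud replicate 1 or 2. The 135 were 83 without shoot apex replicate 2 and 74 without bud replicate 1.

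The triad of TraesCS4A02G293000, TraesCS4B02G020300 and TraesCS4D02G018500 held the most abundant copies. The A copy had 2720 and 3180 TPM in the apex and 952 and 944 TPM in the bud (log2 difference -1.63), and the B and D copies were 1.99 and 1.78 lower as given above, so that the whole triad took part. TraesCS4A02G116800, TraesCS4B02G187600 and TraesCS4D02G189000 had the largest differences, -3.97, -4.62 and -4.52. The D copy of this triad had 107 and 115 TPM in the apex and 4.29 and 3.46 TPM in the bud. On the bud side, TraesCS4A02G226900, TraesCS4B02G089500 and TraesCS4D02G086400 had log2 differences of 2.49, 2.98 and 2.94. The B copy had 5.39 and 6.90 TPM in the apex and 58.3 and 52.2 TPM in the bud. TraesCS4A02G192900, TraesCS4B02G122300 and TraesCS4D02G120400 had 2.84, 2.68 and 3.03, with 0.372 to 1.02 TPM in the apex and 8.24 to 14.7 TPM in the bud.

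Called genes were found on every chromosome and in each sub-genome. On both scales 2.59% of the tested genes of sub-genome A, 2.65% of B and 2.87% of D were higher, and 2.79%, 2.81% and 3.12% lower. By chromosome the share of higher genes ran from 2.05% on 4B and 2.11% on 4A to 3.71% on 1D, which also held the most of the 91 genes described above, and that of lower genes from 2.36% on 6B to 3.44% on 2B. The 677 genes not assigned to a chromosome had 6.65% higher. These rates were not tested against each other. Rows of 4 or more genes adjacent in identifier order and called in the same direction numbered 8 on the higher side, with 38 genes. On the lower side there were 16, with 70 genes. The identifier numbers within a row can have gaps. The longest ran over 7 genes, TraesCS2A02G066700 to TraesCS2A02G067300, higher in the vernalized bud by 1.78 to 5.19 on the log2 scale. A row of 6 genes stood on 2B, TraesCS2B02G078900 to TraesCS2B02G079500, also higher (2.22 to 3.92). On the lower side a row of 6 was TraesCS7D02G204200 to TraesCS7D02G204700, and rows of 4 stood on 6A, 6B and 6D, beginning with TraesCS6A02G316600, TraesCS6B02G347100 and TraesCS6D02G296100. Neighbouring copies of a gene family can share reads, and how such reads were counted for TPM was not given in the sources used here.

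Genes listed at 0 on one side were far more numerous on the bud side. With both apex libraries at 0, 229 genes were above 1 TPM, 91 above 5 TPM and 61 above 10 TPM in both vernalized bud libraries. Of those above 5 TPM, 80 belonged to the set held by the vernalized bud alone, so this is largely the same observation. With both bud libraries at 0, 36 genes were above 1 TPM and 1 above 5 TPM in both apex libraries. The latter was TraesCS4B02G304800, at a mean of 11 TPM. The apex libraries listed 38651 and 38124 genes at 0 and the bud libraries 34655 and 34870, so the bud detected more genes overall.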

How the data were processed

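RNA of 6 groups of AK58, 2 libraries each, was sequenced. Per the study's methods and the submitters' processing notes, the authors trimmed reads with fastp 0.21.0, used hisat2 for alignment to the IWGSC RefSeq v1.0 genome, sorted alignments with SAMtools 1.3.1 and calculated TPM with TPMCalculator. The deposited TPM of each library were used here, and the authors' read counts were not used. TPM keep no depth, so no counting interval was given. No 2 libraries were identical (0 pairs). Identifiers matched 0 entries of the reference table, so no names, positions or sequences were used.

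A gene entered the fit if the mean of any group exceeded 1 TPM. The fit used limma 3.58.1 in R 4.3.3 on log2(TPM + 1), with 1 coefficient per group over all 12 libraries, empirical Bayes with a trend and two-sided p-values. The fit had 6 residual degrees of freedom. Tables and figures used Python 3.11.15 with pandas 2.3.3 and matplotlib 3.10.9. Calls needed p under 0.01 and a fold above 2, as in the study's methods. The fit was tested on simulated data. Alternatives were median-of-ratios scaling (59825 genes tested), a pseudocount of 0.1, no filter, a filter at 5 TPM, untrended variance moderation, calls by adjusted p under 0.05, a replicate block, the 4 libraries alone, and each library left out, where a group of 1 library is assumed to vary like the other groups. Named genes were all SPL genes, the 8 largest differences each way among genes called on both scales and by the adjusted p, with no overlap between groups, the 4 largest of each class each way (for crossed genes by the smaller of the 2 differences) and the 5 most abundant. Members, lists and tests were chosen with earlier results of these data known. The set of genes held by 1 group alone, and the triads and rows of neighbours named, were chosen after their values were seen.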

Additional observations from a re-analysis of the deposited data

Results flagged for a closer look

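The 8 named crossing genes stood on opposite sides of the shoot apex before and after vernalization of the bud. Their change within the bud, vernalized minus non-vernalized axillary bud, is given as a description, since the choice of the largest crossings fixed that it was large. It was -5.62 on the log2 scale for TraesCS7A02G178300, -4.71 for TraesCS7B02G084000, -4.56 for TraesCS7D02G180200 and -4.00 for TraesCS6D02G206200. The change was 7.24 for TraesCS3D02G517300, 5.92 for TraesCS2B02G086200, 5.83 for TraesCS4D02G358800 and 5.52 for TraesCS7D02G429000. Groups of 2 libraries are too small for a search for single deviating libraries.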

How the results depend on the processing

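Median-of-ratios scaling moved the most counts. It gave 1615 genes higher and 2963 lower, 4 SPL genes called, 38 triads with all 3 copies and 76 with 1 copy called, 499 genes still higher in bud, 2369 still higher in apex, 696 newly higher in bud, 136 newly higher in apex, 137 crossed, 121 called the opposite way in the second pair of groups and 1670 genes higher in vernalized leaf but lower here. A pseudocount of 0.1 gave 92 triads with all 3 copies, 2256 genes still higher in bud, 3334 no longer higher in apex, 572 crossed, 484 called the opposite way in the second pair and 1237 genes higher both in vernalized leaf and here. A filter at 5 TPM gave 1037 genes newly higher in bud. The 4 libraries alone gave 2863 higher genes and 33 and 89 triads with all 3 copies or 1 copy called. The mean r between bud and apex libraries was 0.910 over the genes tested.

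Leaving out single libraries gave 2674 to 12732 genes higher, 1476 to 1812 lower, 6 to 14 SPL genes called, 29 to 200 triads with all 3 copies and 74 to 193 with 1 copy called. Genes still higher ranged from 707 to 5067 in bud and 1326 to 1614 in apex, genes no longer higher from 1248 to 1508 in bud and 1767 to 2656 in apex, genes newly higher from 1296 to 2154 in bud and 31 to 62 in apex, and crossed genes from 199 to 252. Of the second pair 1802 to 3893 genes were called alike and 155 to 243 oppositely, and of genes higher in vernalized leaf 597 to 776 were higher and 705 to 903 lower. With the replicate number as a block, 5458 genes were higher and 1742 lower and 12 SPL genes were called, and none of the 16 counts refitted with it moved by over 1.5 times. No label ties the numbers to a shared plant or day, and each comparison has only 2 numbers, so the samples were not taken as paired. Deviations of same-numbered libraries had r of 0.148 for shoot apex and vernalized axillary bud, 0.742 for shoot apex and vernalized shoot apex, and -0.109 at the lowest of the 15 pairs of groups. Among recomputed counts and values 175 stayed within 1.5 times or within the spread and 38 moved, and among values for named genes 966 kept their call, 23 lost it, 18 gained it and 0 reversed. The cause of these changes was not tested, and TPM limit what can be said of genes listed at 0.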
